A study of Rattus norvegicus with 10 samples.

Results

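Ligation alone was set against remote preconditioning alone in the dorsal vagal complex, the hindbrain region that holds the vagal motor neurons of the DMV. The comparison used the 3 rats with the treatment label LAD and the 2 rats labelled rIPC, which are 5 of the 10 rats of the series, and the 420 microRNA probes of the panel. Both groups were adult male Sprague Dawley rats, with 1 punch sample per animal and no transgene. In rIPC (remote ischemic preconditioning) the femoral vessels of both legs were occluded for a short time and then released. In LAD the left anterior descending coronary artery was tied through an opened chest in ventilated rats, and the tissue was taken 24 h later. The injected anesthetics, ketamine and xylazine, were the same for both procedures. The study's timeline placed the collection of the rIPC animals at a matched time. No animal of the 10 had a sham operation, so ischemia of the heart, ischemia of the legs, the opened chest with ventilation and the leg incision cannot be told apart in this contrast. The other rats were 3 of the age matched control group (AMC) and 2 of the group rIPC 2h/LAD. The latter had the preconditioning 2 h before the ligation. These other rats entered the fit to estimate the spread between animals, and they counted in the background filter and the scaling. They are otherwise given as points of reference. A punch holds neurons, glia and vessels, and fewer cells of a type cannot be told apart here from less microRNA per cell.

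MicroRNAs are short RNAs that guide Argonaute proteins to messenger RNAs. The pairing is led by the seed, the bases 2 to 8 of the mature strand, and lowers the stability and translation of the targets. In the brain many microRNAs mark a cell type. MiR-218 is a marker of motor neurons, miR-124 of neurons in general, miR-219 and miR-338 of oligodendrocytes, and miR-204 of the choroid plexus, which lies close to this part of the brainstem. A large imprinted cluster between Dlk1 and Dio3 gives many neuronal microRNAs from the maternal chromosome.

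The mature strands of the microRNAs with lower fitted values in LAD are shown because 7 of the 12 with the smallest p came from the Dlk1-Dio3 locus and 3 were neuron-enriched. Of the 253 microRNAs detected, 39 were of that locus and 11 of the neuron-enriched list. None of them differed after adjustment, and the members of the locus are no independent measurements. Capitals mark the seed, and all sequences are those of RefSeq on build GRCr8, read 5′ to 3′.
miR-218a: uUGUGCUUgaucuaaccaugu
miR-7b: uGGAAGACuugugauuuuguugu
miR-7a: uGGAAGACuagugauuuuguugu
miR-137: uUAUUGCUuaagaauacgcguag
miR-487b: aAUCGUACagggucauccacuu
miR-495: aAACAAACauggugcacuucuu
miR-433: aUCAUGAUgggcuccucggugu
miR-376b-3p: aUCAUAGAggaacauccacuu
miR-410: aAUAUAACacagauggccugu
MiR-218a comes from hairpins on 2 chromosomes, with the mature strand at chr10:20572547-20572567 and at chr14:66922413-66922433. Of the strands shown, only miR-7a and miR-7b shared a seed.

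Strands with higher fitted values in LAD are shown because the later paragraphs describe their levels, with miR-34a beside miR-449a because their seeds are the same.
miR-3594-3p: cACACCGCcucugcccgcuagu
miR-210: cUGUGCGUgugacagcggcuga
miR-143: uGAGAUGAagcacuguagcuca
miR-449a: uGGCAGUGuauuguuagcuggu
miR-34a: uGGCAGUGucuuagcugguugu
miR-27a: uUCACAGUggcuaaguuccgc
miR-93: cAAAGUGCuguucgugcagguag
miR-183: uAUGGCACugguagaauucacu
These came from different chromosomes, for example miR-3594-3p from chr10:105845832-105845853 and miR-210 from chr1:205755946-205755967.

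The 5 samples differed in depth. Their total microRNA counts were 90086 and 73293 in rIPC and 102329, 42893 and 28485 in LAD, where LAD 3 had 114 probes at the lowest count of 1. A count was taken as above background when it exceeded the mean plus 2 SD of the 8 negative control probes of its sample, and 253 of the 420 microRNAs passed this in at least 2 of the 10 samples. Of the 253, 7 were above background in no LAD and no rIPC sample. In the 5 animals compared, between 162 and 224 microRNAs were above that level. The synthetic positive control POS_A, which is added in a known amount, lay at 13236 and 14579 counts in LAD 1 and rIPC 2 and between 7049 and 8670 in the other 3. The 5 samples thus formed a high and a low spike-in set with both groups in each, and differences within the sets are given beside the results. All AMC animals lay in the high set, from 11724 to 13749 counts, and both rIPC 2h/LAD animals in the low set, at 6725 and 7264. A comparison of LAD 2, LAD 3 or rIPC 1 with AMC is therefore also one between the sets. Neuronal and hindbrain identity were checked by markers. Levels are given as log2 CPM, the log2 of a count scaled to the library size and the TMM factor of its sample. MiR-124 had a mean of 16.01 log2 CPM in LAD and 15.79 in rIPC, among the highest of the panel. Of 7 probes of the Hox cluster list 3 were detected, miR-10a-5p, miR-196b and miR-196c. Only miR-10a-5p was above background in all 5 animals compared. MiR-196b was above it in no LAD and 1 rIPC sample, and miR-196c in 2 LAD samples and 1 rIPC sample.

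No microRNA differed between LAD and rIPC after adjustment over the 253 detected ones. The number called by the quasi-likelihood test of edgeR at an adjusted p under 0.05 was 0, or 0%, and the smallest adjusted p was 0.9995. At an unadjusted p under 0.05 there were 4 microRNAs with higher values in LAD, 1.58% of those tested, and 3 with lower values, 1.19%. That is 7 in all, where 12.7 would be expected at this level if no microRNA differed. DESeq2 and limma-voom also called 0, with 4 and 5 microRNAs at an unadjusted p under 0.05. The fitted value was higher in LAD for 151 microRNAs and lower for 102, and the median log2 fold change was 0.08. All log2 fold changes below are LAD minus rIPC, with the SE after the sign ±.

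The measured differences were mostly small and the intervals wide. The median size of the log2 fold change was 0.29, 193 microRNAs lay under 0.5 and 10 lay over 1, of which 9 were higher in LAD. The median SE was 0.43, so that a 95% interval reached 0.92 to either side. The interval stayed within a change of 1 log2 unit for 79 of the 253, and for the others a change of that size was not excluded by these 5 animals. Among the most abundant microRNAs were miR-125b-5p at -0.22 ± 0.28, miR-9 at -0.30 ± 0.31, miR-124 at 0.28 ± 0.38 and let-7b at 0.10 ± 0.29. These values are all smaller than their errors. Among scarce microRNAs the fitted values leaned upward in LAD, with medians of -0.03 and 0.02 in the more abundant sets of 64 and 63 microRNAs and of 0.22 and 0.25 in the less abundant sets of 63 each, where the median SE was 0.48 and 0.60. LAD held the shallowest samples, and the part of depth in this lean was not tested.

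**Figure D1:**
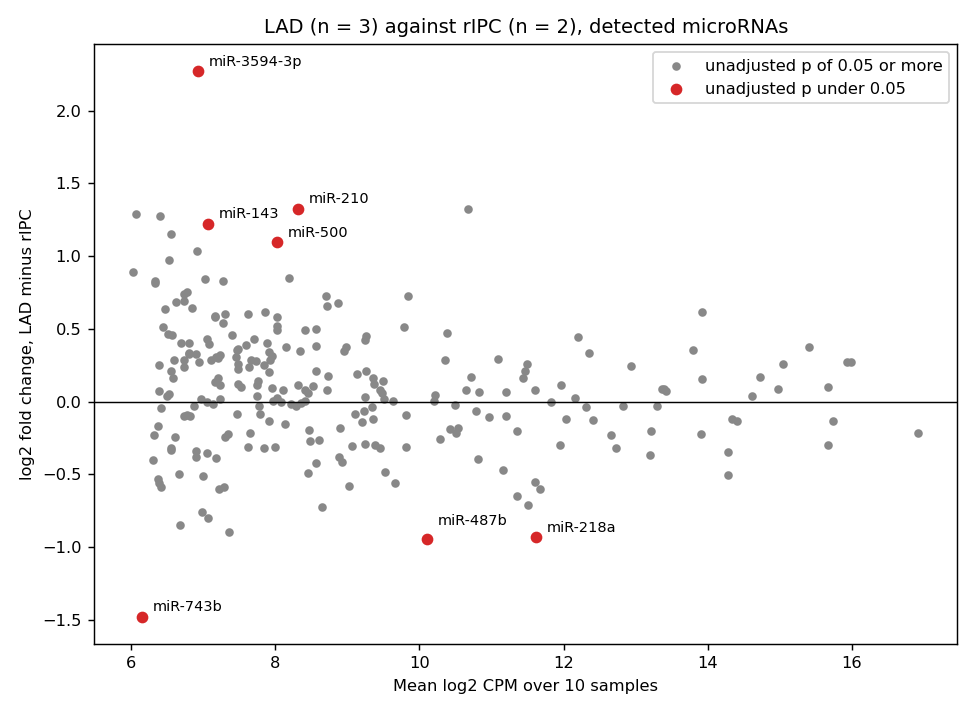
The log2 fold change of LAD minus rIPC (vertical axis) is plotted against the mean log2 CPM over 10 samples (horizontal axis), with 1 point for each of 253 detected microRNAs. The 7 red points have an unadjusted p under 0.05, none passed the adjustment, and the points spread more widely at low levels.

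In levels, all 3 LAD values lay above both rIPC values for 22 microRNAs, 8.7% of the 253, and below both for 17, or 6.72%. Of these 39, 21 were above background in all 5 animals, and 10 were above it in no sample of one group, 9 of them in neither rIPC sample. If the 3 LAD and both rIPC animals did not differ, each of the 10 placements of the group labels would be equally likely. For a given microRNA, all LAD above is a single placement, and all LAD below is another. Neither 8.7% nor 6.72% exceeds the share of a single placement, so a lack of overlap is not by itself evidence of a difference. The AMC animals served as a reference. In 7 of the 39 all LAD values lay outside the AMC range, in 10 both rIPC values did, and in 3 of these microRNAs both groups lay outside it. Over all 253 the numbers were 22 for LAD and 30 for rIPC. The 7 with LAD outside the AMC range were miR-218a, miR-487b, miR-433 and the probe shared by miR-344b-1-3p and miR-344b-2-3p below it and miR-3593-5p, miR-541 and miR-3555 above it. MiR-3555 was above background in 1 LAD sample and in no rIPC or AMC sample. The shared miR-344b probe was above it in 1 LAD sample, and miR-541 in 2 LAD samples. The placement of these scarce microRNAs rests in part on background.

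MiR-218a, the motor neuron microRNA, was one of the 17 microRNAs with all LAD values below both rIPC values. Its log2 CPM was 11.03, 10.93 and 10.69 in LAD and 11.91 and 11.71 in rIPC. The groups did not overlap, and both were tight, with an SD of 0.18 in LAD (n = 3) and 0.14 in rIPC (n = 2). In AMC it was 11.35, 12.37 and 12.17, so both rIPC values lay inside the control range and all LAD values below it. The 2 animals of rIPC 2h/LAD were at 11.54 and 12.49, also above the LAD animals. The log2 fold change was -0.93 ± 0.36, to 0.525 of the rIPC level, with an unadjusted p of 0.019 and an adjusted p of 0.9995 in edgeR. It was -0.69 within the high and -1.11 within the low spike-in set. The exact permutation test of the means, two-sided, gave p = 0.1, the smallest that its 10 placements of 3 against 2 animals allow.

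The study singled out miR-218a together with miR-495 and miR-183 on these same samples, so their values are a description and no independent evidence. MiR-495, of the Dlk1-Dio3 locus, was at 10.72, 10.71 and 11.46 log2 CPM in LAD and at 12.11 and 11.11 in rIPC. Here the groups overlapped, since LAD 3 was above rIPC 2. The log2 fold change was -0.71 ± 0.36 and the exact permutation p was 0.3, and without LAD 1 and rIPC 1 the log2 fold change was 0.01. MiR-183, of the cluster with miR-96 and miR-182 that is known from sensory organs, was at 9.77, 9.53 and 9.48 in LAD and at 9.58 and 8.64 in rIPC. Its groups overlapped through rIPC 1, its log2 fold change was 0.45 ± 0.35 and the exact permutation p was 0.3, or 0.1 without the TMM factor. Its difference lay in the high spike-in set, at 1.18, with -0.07 in the low one. The other members of that cluster had like fitted values, miR-96 at 0.49 ± 0.46 and the list's median at 0.46 over 3 members, none of which separated the groups. MiR-182, at 0.46 ± 0.55, was above background in 1 LAD sample and in no rIPC sample, so its value rests on background.

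Among the neuron-enriched list of 11 detected microRNAs, 5 were higher and 6 lower in LAD, with a median of -0.14 against 0.08 over all 253. None was called, 1 had an unadjusted p under 0.05 with a lower value, beside 1.19% of all detected microRNAs, and 3 of the 11 lay below both rIPC values, beside 6.72%. Besides miR-218a these were miR-7b, which targets alpha-synuclein, and miR-137, a microRNA of neuronal maturation. MiR-7b was at 8.30, 8.04 and 8.66 log2 CPM in LAD and at 9.28 and 8.68 in rIPC, a log2 fold change of -0.72 ± 0.35. The highest LAD value was just under the lower rIPC value. Its seed mate miR-7a, at 10.24, 9.35 and 11.64 in LAD and 11.30 and 10.79 in rIPC, overlapped and was at -0.39 ± 0.49. MiR-137 was at 8.89, 8.70 and 8.39 in LAD and 9.16 and 9.37 in rIPC, at -0.58 ± 0.36. The other 7 members were within their errors, with miR-124 at 0.28 ± 0.38, miR-153 at 0.29 ± 0.65, miR-132 at 0.17 ± 0.38, miR-128 at 0.01 ± 0.33, miR-138 at 0.00 ± 0.32, miR-129 at -0.14 ± 0.38 and miR-212 at -0.24 ± 0.58. The summed share of the list in all microRNA counts was 6.81%, 12.8% and 11.8% in LAD and 8.83% and 9.86% in rIPC, so the share of this list did not separate the groups.

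The Dlk1-Dio3 locus on rat chromosome 6 supplied 39 detected microRNAs, of which 25 had lower and 14 higher fitted values in LAD. The median was -0.19 against 0.08 for all detected microRNAs. None was called. Of the 39, 7 lay below both rIPC values and 2 above both, beside 6.72% and 8.7% of all detected microRNAs. The members come largely from shared transcripts and are no independent measurements. Lower values were found along the whole locus, with 12 of the 19 members nearest Dlk1 and 13 of the 20 nearest Dio3, and both stretches had a median of -0.19. Among the 20 members with an SE under 0.4, 17 were lower in LAD, beside 52.3% of all detected microRNAs with such an SE. This cut was applied to no other list, and it left out most of the 14 members with higher values. The 52.3% also counts the members of the locus. The 17 of 20 is therefore no separate evidence beside the 25 of 39. The summed share of the whole list in all microRNA counts was 5.75%, 6.84% and 6.29% in LAD and 7.57% and 8.61% in rIPC. All LAD animals lay below both rIPC animals, and AMC ranged from 6.87% to 7.81%.

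MiR-487b had the smallest p of the locus. Its log2 CPM was 10.06, 9.53 and 8.99 in LAD and 10.67 and 10.45 in rIPC, at counts of 104, 33 and 14 against 132 and 121. The groups did not overlap, and AMC lay between them at 10.13, 10.36 and 10.09. The log2 fold change was -0.94 ± 0.34, with an unadjusted p of 0.0131, and it was -0.40 within the high and -1.39 within the low spike-in set. MiR-433 was at 11.13, 11.56 and 11.29 in LAD, at 11.94 and 11.82 in rIPC and at 11.64, 11.65 and 11.70 in AMC. The controls again lay between both groups, with a log2 fold change of -0.55 ± 0.29. MiR-376b-3p (-0.65 ± 0.34) and miR-434 (-0.50 ± 0.30), the most abundant of these with log2 CPM of 13.99, 14.10 and 13.65 in LAD and 14.60 and 14.23 in rIPC, also did not overlap. MiR-369-3p at -0.60 ± 0.37 and miR-410 at -0.48 ± 0.34 overlapped between the groups. Without the shallow samples LAD 2 and LAD 3, a choice made after seeing the data, some of these differences shrank and others grew. MiR-487b was then at -0.43, miR-376b-3p at -0.11, miR-434 at -0.36 and miR-369-3p at -0.28. MiR-433 was at -0.68 and miR-410 at -0.81. On the opposite side, the LAD values of miR-541, at 0.60 ± 0.43, and miR-381 all exceeded both rIPC values, but miR-381 was above background in none of these 5 samples and its difference of 0.69 ± 0.60 rests on background.

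**Figure D2:**
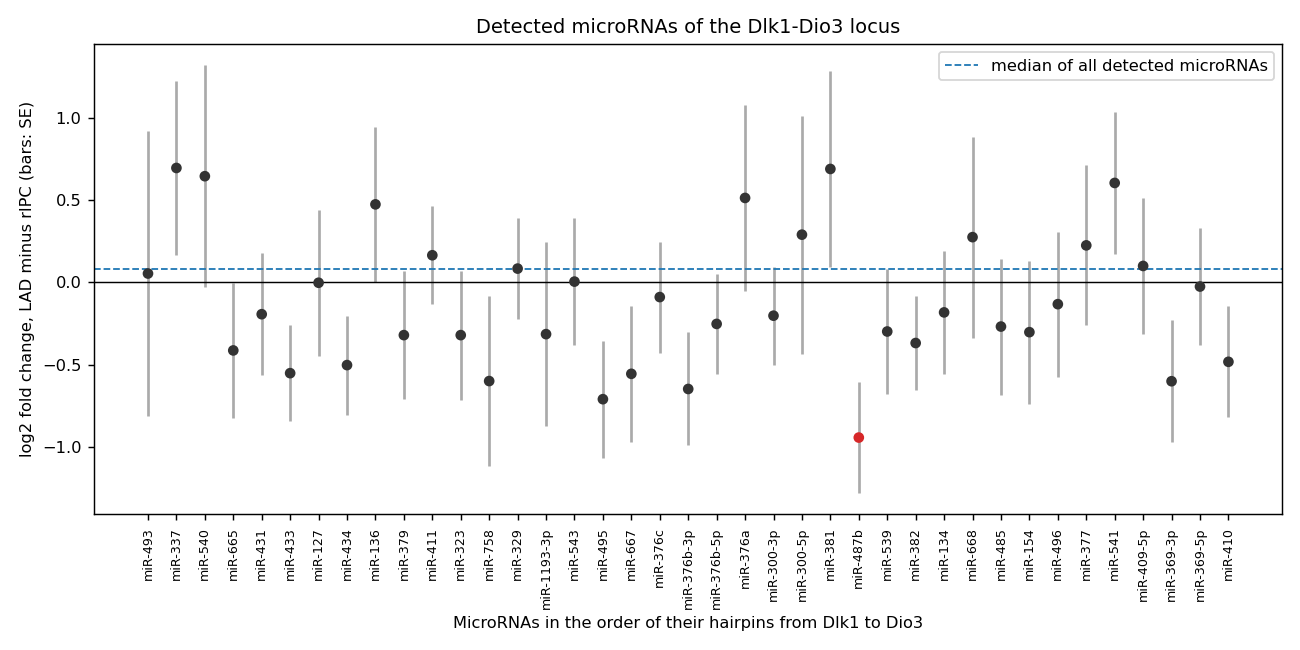
Log2 fold changes of LAD minus rIPC with their SE are plotted for the 39 detected microRNAs of the Dlk1-Dio3 locus, in the order of their hairpins from Dlk1 to Dio3. Of these, 25 lie below 0 along the whole locus, miR-487b is the only one with an unadjusted p under 0.05 (red), and the dashed line is the median of all detected microRNAs at 0.08.

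Other microRNAs with lower values in LAD came from outside these lists. MiR-374 was at 7.37, 6.80 and 6.56 log2 CPM in LAD and 7.61 and 8.04 in rIPC, at -0.90 ± 0.42, but only 1 of the 3 LAD samples was above background. MiR-335, which lies in an intron of the imprinted gene Mest, was at 11.65, 10.55 and 10.56 in LAD and 11.66 and 11.33 in rIPC, at -0.47 ± 0.35, and within the high set it was higher in LAD, at 0.32. MiR-743b, named because it was the third with an unadjusted p under 0.05 on this side, was above background in no LAD sample and in 1 rIPC sample, with counts of 3, 1 and 1 against 7 and 7. Its log2 fold change of -1.48 ± 0.68 rests on background.

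Of the 12 microRNAs with higher fitted values in LAD and the smallest p, 7 lay above both rIPC values, beside 8.7% of all 253. The 12 were picked by p from these same values, which favors a lack of overlap, so the 7 is no evidence of a difference. MiR-3594-3p had the largest fitted difference, 2.27 ± 0.80, with an unadjusted p of 0.0119. Its log2 CPM was 6.97, 8.04 and 8.06 in LAD and 5.22 and 6.35 in rIPC, at counts of 10, 11 and 7 against 1 and 5. It was above background in 3 of 3 LAD samples and in 0 of 2 rIPC samples, so the size of the difference is not known. AMC was at 7.71, 5.80 and 7.27, so that LAD 2 and LAD 3 lay above its range and rIPC 1 below it. The other strand of the same hairpin, miR-3594-5p, was at 8.10 in LAD 1, at 9.73 in LAD 2 and slightly higher in LAD 3, and at 8.51 and 8.94 in rIPC, with LAD 1 below both rIPC animals and a log2 fold change of 0.68 ± 0.46.

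MiR-500, a microRNA of an X-chromosomal cluster, was at 8.16, 8.62 and 7.35 log2 CPM in LAD and 7.07 and 7.33 in rIPC. LAD 3 cleared rIPC 2 only narrowly, at a count of 4 that was not above background. AMC was at 8.08, 9.29 and 9.05, so here rIPC lay below the control range and the LAD animals within or below it. Its fitted difference was 1.10 ± 0.50, with an unadjusted p of 0.0433. Its neighbours in the cluster gave other values, miR-501 at 0.08 ± 0.52 and miR-532-5p at -0.80 ± 0.91.

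MiR-210, which is induced by HIF-1 under low oxygen in many tissues, was at 7.37, 9.57 and 8.89 log2 CPM in LAD and at 7.42 and 7.69 in rIPC. LAD 2 and LAD 3 were well above rIPC while LAD 1 was below both. AMC was at 8.13, 7.55 and 9.05, and rIPC 2h/LAD at 8.94 and 8.62. In the fit it was at 1.33 ± 0.62, with an unadjusted p of 0.0482. It was 2.05 in the low and -0.37 in the high spike-in set, 0.59 without LAD 2, and -0.15 without LAD 2 and LAD 3.

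MiR-449a, a microRNA of ciliated cells, had nearly equal values in LAD, 8.63, 8.62 and 8.66 log2 CPM, above 8.07 and 7.61 in rIPC. The AMC values of 8.76, 7.90 and 8.93 enclosed all LAD values and rIPC 1, while rIPC 2 lay below them. Its log2 fold change was 0.85 ± 0.41, 1.12 in the high and 0.62 in the low spike-in set. MiR-27a (0.45 ± 0.29), of a cluster with miR-23a and miR-24, and miR-93 (0.50 ± 0.32), of the miR-106b cluster, separated the groups at smaller differences. Their cluster mates miR-23a at -0.04 ± 0.31, miR-25 at 0.21 ± 0.30 and miR-106b at -0.76 ± 0.58 overlapped, and miR-24 was not detected. MiR-27a was at 12.39, 12.54 and 12.63 in LAD and 11.94 and 12.20 in rIPC, and miR-93 at 8.73, 8.84 and 8.89 against 8.25 and 8.42. MiR-378, which lies in an intron of Ppargc1b, was at 9.04, 8.36 and 8.39 in LAD and 8.25 and 8.21 in rIPC, a log2 fold change of 0.49 ± 0.37. It fell to 0.16 without LAD 1. MiR-3593-5p (0.73 ± 0.38) did not overlap either, while miR-483 (0.84 ± 0.55), of the Igf2 gene, and miR-345-5p (0.73 ± 0.48) did.

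**Figure D3:**
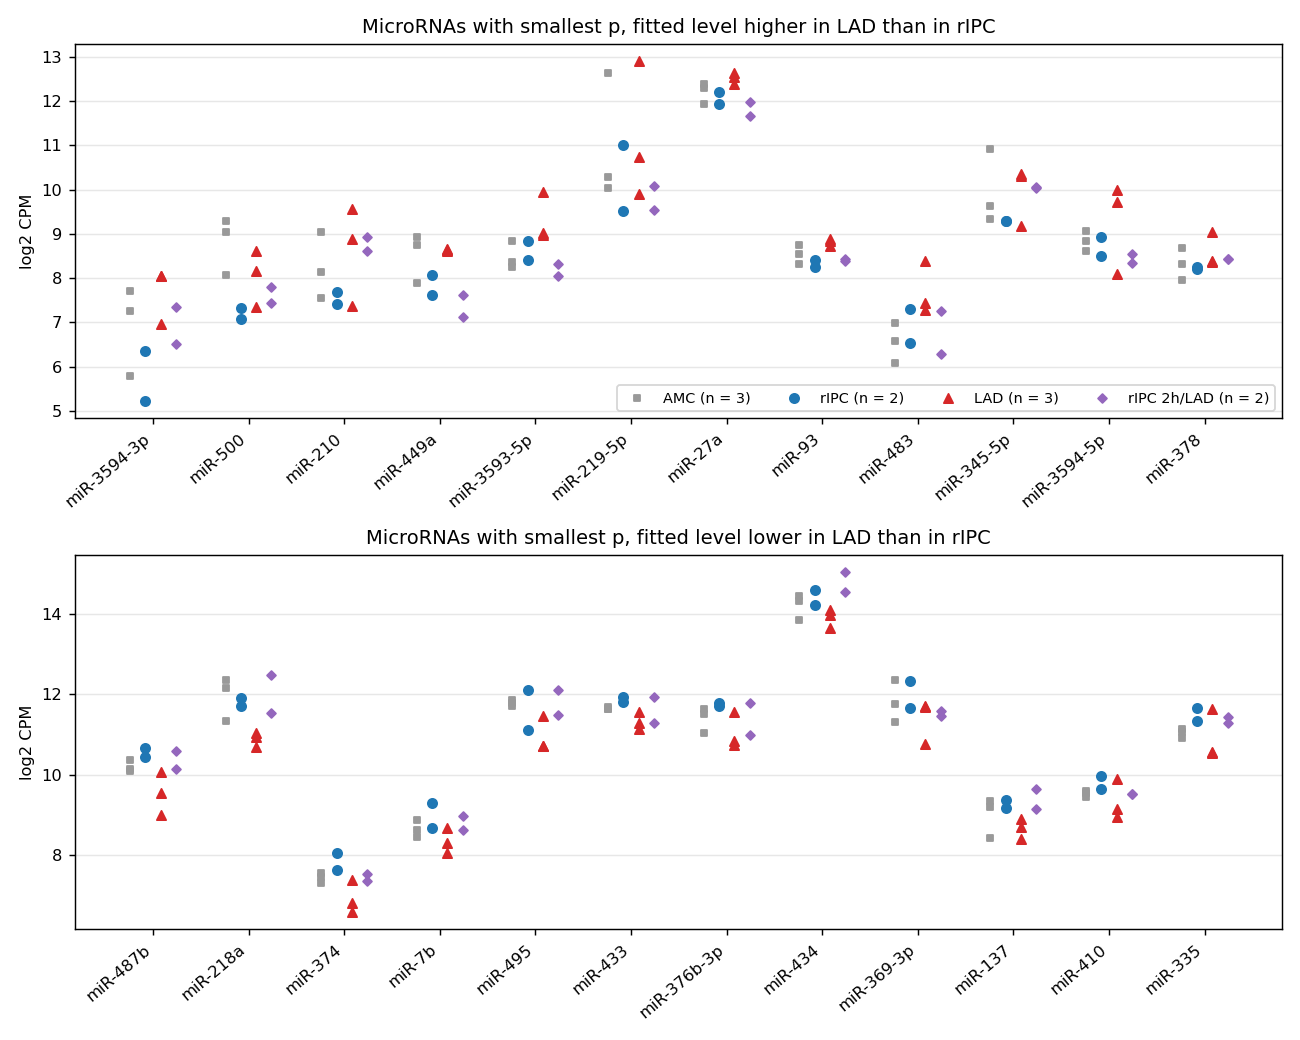
Each point is the log2 CPM of 1 animal for the 12 microRNAs with the smallest p and higher (upper panel) and lower (lower panel) fitted values in LAD, with rIPC (blue circles, n = 2), LAD (red triangles, n = 3), AMC (grey squares, n = 3) and rIPC 2h/LAD (purple diamonds, n = 2). MiR-218a, from 10.69 to 11.03 in LAD, and miR-487b, from 8.99 to 10.06, have all LAD animals under every other animal, and miR-210 shows 1 LAD animal at the rIPC level.

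Some markers of the choroid plexus and of ciliated cells differed strongly between animals of one group. MiR-204 of the choroid plexus was at 17.52, 14.14 and 14.39 log2 CPM in LAD and at 16.70 and 14.27 in rIPC. One animal of each group was thus far above the others, and the list's summed share of counts was 18.4% in LAD 1 and 9.80% in rIPC 1 against 1.97% to 2.41% in the other 3. MiR-34c, of motile cilia, followed the same animals at 11.17, 8.91 and 8.89 in LAD and 10.84 and 8.56 in rIPC, and miR-449a, given above, did not. Because LAD 1 and rIPC 1 lay in different spike-in sets, the differences within sets turned in sign, for miR-204 from 3.24 in the high to -2.43 in the low set and for miR-34c from 2.69 to -2.0. In the high set these 2 were called, both at an adjusted p of 0.0231 in edgeR, where LAD 1 stands alone against rIPC 2 and the spread comes from other animals. In the low set they missed the threshold, with adjusted p of 0.0563 and 0.0636. Over all 5 animals miR-204 was at 0.26 ± 0.83 and miR-34c at 0.06 ± 0.64. The 5 detected members of the list of miR-34 and miR-449 were at 0.06 to 0.85, where 151 of all 253 microRNAs were higher. Of these 5 members, 1 lay above both rIPC values, beside 8.7% of all detected microRNAs. Without LAD 1 and rIPC 1, miR-218a was at -0.90 and miR-487b at -1.17, while miR-7b was at -0.36.

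The oligodendrocyte list had 3 detected members, all with higher fitted values in LAD and a median of 0.61, and none separated the groups. MiR-219-5p was at 10.73, 12.91 and 9.90 log2 CPM in LAD and at 9.53 and 11.00 in rIPC, and miR-338 at 13.94, 15.11 and 13.89 against 13.26 and 14.22. LAD 2 stood out in both. The log2 fold change of miR-219-5p was 1.33 ± 0.83 with LAD 2 and -0.03 without it, and that of miR-338 was 0.61 ± 0.49 and 0.09. The list made up 5.15% of the counts of LAD 2 and 1.26% to 3.10% of those of the other 4. Whether white matter in the punch had a part in these values was not tested.

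Blood, vessel, immune and muscle markers had no called member. Of 6 detected immune microRNAs 5 were higher and 1 lower, with a median of 0.28. MiR-146b, a microRNA of innate immune responses, was at 8.43, 8.04 and 8.06 log2 CPM in LAD and 8.60 and 8.76 in rIPC, below both, at -0.49 ± 0.37, and miR-21 was at 0.35 ± 0.32. The 3 vascular microRNAs had a median of 0.07. Among them, miR-145 of smooth muscle was at 0.07 ± 0.35, while its scarce cluster mate miR-143 was at 1.22 ± 0.56 with an unadjusted p of 0.0446, 1 of the 4 on that side. It had 0 of 2 rIPC samples above background and counts of 20, 7 and 5 against 3 and 10, and was at 0.65 without rIPC 1 and at 2.25 without rIPC 2. MiR-133a, a microRNA of heart and skeletal muscle, was at 9.27, 9.40 and 9.74 in LAD and 9.03 and 9.06 in rIPC, at 0.42 ± 0.37. The heart and muscle list held 0.128% to 0.204% of counts in LAD, 0.125% and 0.164% in rIPC and 0.143% to 0.175% in AMC. The erythrocyte list held at most 0.049% in any of these animals, and the liver microRNA miR-122 was not detected.

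**Figure D4:**
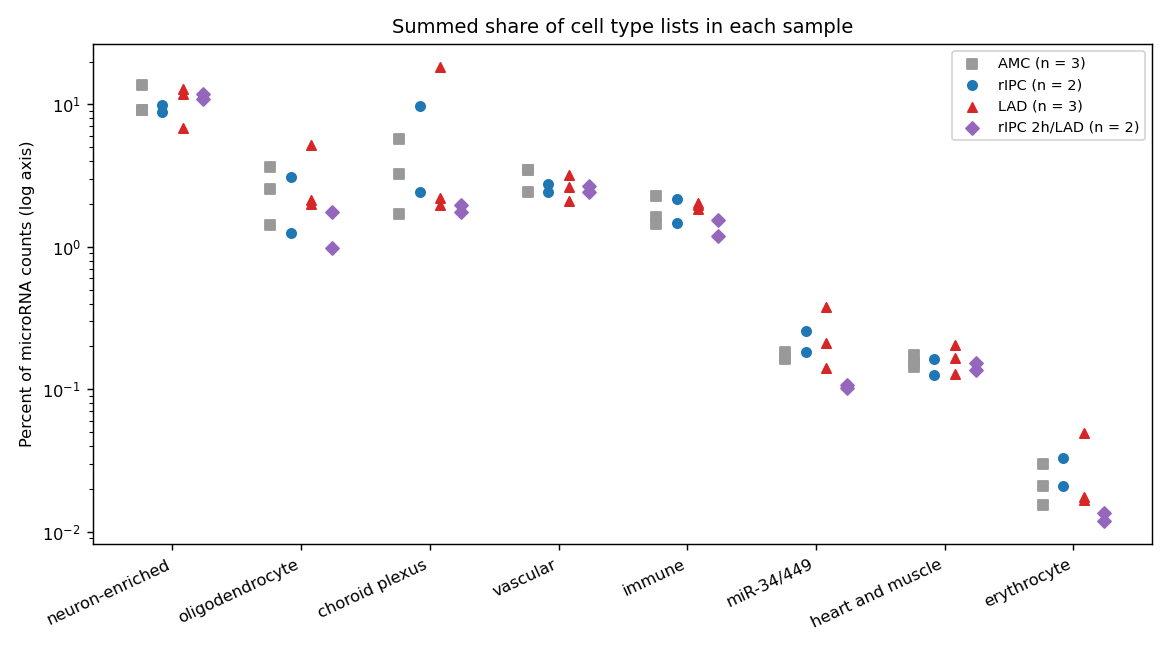
The percent of all microRNA counts taken by each cell type list is plotted on a log axis, with 1 point per animal in AMC (grey squares), rIPC (blue circles), LAD (red triangles) and rIPC 2h/LAD (purple diamonds). The choroid plexus share reaches 18.4% in LAD 1 and 9.80% in rIPC 1 and lies near 2% in the other 3 animals compared, and LAD and rIPC overlap in every list shown.

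The large families of the panel had no called member. The 8 let-7 members, regulators of differentiation, split 4 to 4 with a median of -0.02 and a range from -0.32 to 0.27. The miR-125/99/100 group was among the most abundant groups of the panel. Of its 7 members 5 were lower, with a median of -0.06 and a range from -0.22 to 0.17. Their summed share of counts was 17.0%, 20.2% and 17.6% in LAD and 20.8% in both rIPC animals. The miR-29 members lay between -0.13 and 0.08, and the miR-30 members between -0.04 and 0.24. Groups with all members higher in LAD were miR-130 with miR-301a and miR-301b, with a median of 0.42 over 4 members and miR-301a at 0.66 ± 0.54, and miR-181, with a median of 0.21 over 3 and miR-181a at 0.38 ± 0.33. In the group of miR-15b, miR-16 and their seed relatives the median was -0.20, with the scarce miR-195 at 1.04 ± 0.58, or 2.06 without rIPC 1 and 0.43 without rIPC 2. No member of these families had an unadjusted p under 0.05.

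The 4 mRNA probes of the panel differed in the same samples that differed in depth. Per 100000 microRNA counts, Actb, which encodes beta-actin, was at 1324 and 1343 in rIPC and at 1075, 2788 and 4946 in LAD. Of these animals, the shallow samples LAD 2 and LAD 3 had the highest values. The AMC samples, with total microRNA counts of 90348 to 102824, were at 2164, 2949 and 3136. For each of the 4 probes LAD 2 lay within the AMC range and LAD 3 above it. LAD 1 and both rIPC animals lay below that range for each probe, so the values did not simply follow depth. The ligation control, which reports how well the assay's tags were joined to microRNAs, was 79.2% and 38.4% of POS_A in rIPC and 35.9%, 54.4% and 24.3% in LAD. With the ligation control as a covariate 0 microRNAs were called and 10 had an unadjusted p under 0.05, with miR-218a at -0.77, miR-487b at -0.85, miR-500 at 1.17 and miR-210 at 1.61.

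Read within the spike-in sets, 101 of the 253 microRNAs had the same sign in both. Of the 24 named by smallest p it was 18, and of the 7 with an unadjusted p under 0.05 it was 6, where miR-210 was the exception. The fit over all 5 animals draws on both sets, so these small p-values and the shared signs are not separate evidence. Within the low set, where LAD 2 and LAD 3 stand against rIPC 1, 29 microRNAs had an unadjusted p under 0.05 and 0 were called.

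**Figure D5:**
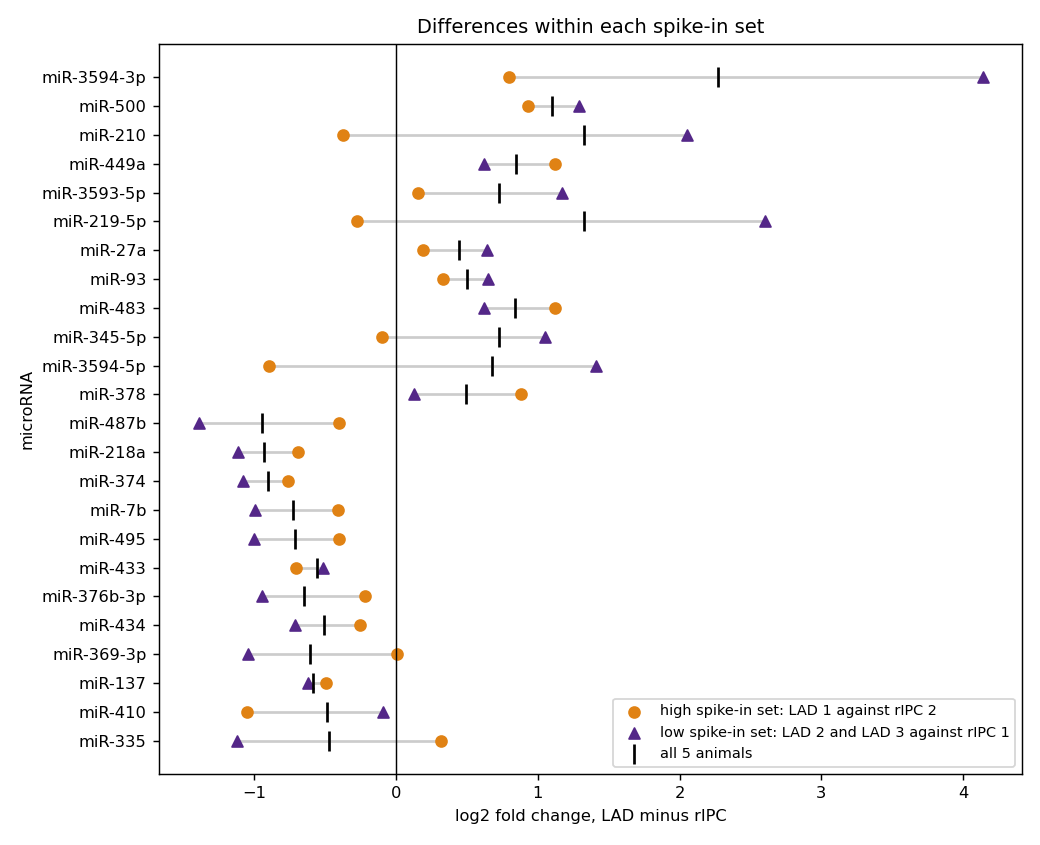
For the 24 microRNAs with the smallest p, the log2 fold change of LAD minus rIPC is plotted within the high spike-in set (orange circles, LAD 1 against rIPC 2), within the low set (purple triangles, LAD 2 and LAD 3 against rIPC 1) and over all 5 animals (black bars). The 2 sets share a sign for 18 of them, and miR-219-5p and miR-210 lie on opposite sides, at -0.27 and 2.60 and at -0.37 and 2.05.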

How the data were processed

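The authors assayed total RNA of dorsal vagal complex punches, cut from brainstem sections, with the NanoString nCounter microRNA panel, which counts barcoded probes directly. As deposited, counts are whole numbers for 420 microRNA, 4 mRNA, 6 positive, 8 negative and 6 ligation control probes, with no value under 1. For the counting software, a name is not given in the sources used. Of the 420 probes, 3 join several microRNAs. The authors also deposited log2 values of 146 microRNAs, which were found to be the log2 of counts per 100000 microRNA counts and served as an alternative.

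Library size was the sum of the microRNA counts, 28485 to 102329 in the 5 animals compared, and scarce microRNAs are least precise in LAD 3. Counts were scaled by TMM and fitted by quasi-likelihood in edgeR 4.0.16 (R 4.3.3) as 4 group means over all 10 samples (common coefficient of variation 0.287). The contrast LAD minus rIPC was tested two-sided and adjusted by Benjamini-Hochberg over 253 detected microRNAs. The SE was derived from the F statistic (the size of a log2 fold change divided by the root of F), and a prior count of 2 entered the log2 CPM. The edgeR p-values set a difference against the spread between animals, pooled over the 4 groups and 10 samples, and rIPC had only 2 animals. Samples were grouped by the treatment label and numbered in accession order. No pair of samples agreed within sampling noise. The test was also run on counts simulated from the means of these data and the spread of the fit.

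Named microRNAs were the called ones, filled to 12 per direction by smallest p among those above background in every sample of at least 1 group, plus miR-218a, miR-495 and miR-183 and members of the lists described, smallest p first. Members and lists were chosen with earlier results of these data known, and miR-743b, miR-34c, miR-501 and miR-532-5p and abundant microRNAs were named after their values were seen. By full name, 162 of the 420 probes matched a RefSeq mature microRNA, and for probes named without an arm the known guide strand was taken. Alternatives were DESeq2 1.42.0, limma 3.58.1 (voom and on the authors' log2 values), other scalings and detection filters, the animal number prefix as a random block, spike-in set and ligation control as covariates, and samples left out.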

Additional observations from a re-analysis of the deposited data

How the results depend on the processing

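The count of called microRNAs was 0 under every alternative run except within the high spike-in set, where 2 were called between single animals. The number with an unadjusted p under 0.05, 7 in the fit reported, was 4 with DESeq2, 15 with no detection filter, 3 with microRNAs above background in all 5 samples, 2 over the authors' microRNAs, 4 with limma on the authors' log2 values and 29 within the low spike-in set. With each sample left out in turn it ranged from 3 to 19, with 19 without LAD 1, 14 without rIPC 2, 4 without LAD 2 and 3 without rIPC 1. The number that did not overlap, 39, was 21 above background in all 5 samples and 76 without the filter. The cause of these moves was not tested, beyond the different numbers of microRNAs tested. Scaling to the 100 most abundant microRNAs gave a median log2 fold change of 0.13 over all microRNAs, and no TMM factor 0.03. No paired analysis was possible because the replicate numbers of the groups only follow the order of accession.

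Of 1072 fits of 39 named microRNAs under the alternatives, 1032 kept their sign and their side of the threshold, 2 passed it (miR-204 and miR-34c in the high spike-in set) and 38 turned in sign, in 14 microRNAs. Of 489 medians of 18 lists, 51 moved. Within the high spike-in set, miR-210 was at -0.37, miR-219-5p at -0.27, miR-345-5p at -0.10, miR-3594-5p at -0.89, miR-369-3p at 0.01, miR-335 at 0.32, miR-338 at -0.28, miR-145 at -0.01 and miR-181a at -0.08. Within the low set, miR-183 was at -0.07, miR-204 at -2.43 and miR-34c at -2.0. Without LAD 2 and LAD 3, which was chosen after seeing the data, miR-210 was at -0.15, miR-345-5p at -0.03, miR-3594-5p at -0.61, miR-335 at 0.23, miR-145 at -0.08 and miR-181a at -0.06. Without LAD 1 and rIPC 1, also chosen after seeing the data, miR-495 was at 0.01, miR-7a at 0.09 and miR-204 at -0.00. MiR-204 was at -0.06 with limma-voom, -0.25 with the prefix block, -0.18 with limma on the authors' log2 values and -0.68 in the fit with a term for the spike-in set. MiR-34c was at -0.02 with DESeq2, -0.05 with the prefix block, -0.06 with no detection filter, -0.08 with limma on the authors' log2 values and -0.20 with that term, and miR-145 was at -0.11 with no detection filter. With single samples left out, miR-219-5p ranged from -0.03 to 2.26, miR-204 from -1.65 to 1.94, miR-145 from -0.08 to 0.22 and the miR-34c log2 fold change from -1.22 to 1.67. The cause of these reversals was not tested. In LAD 3 and LAD 2, the depth limits what can be said of microRNAs near background.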
